A study of Rattus norvegicus with 6 samples.

Results

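Ttr, Ptgds, Enpp2 and Cp, 4 genes for proteins that choroid plexus and meninges secrete into the cerebrospinal fluid, were followed in whole hippocampus of Syracuse High Avoidance (SHA) and Syracuse Low Avoidance (SLA) rats. Every probe set whose platform annotation names exactly 1 gene, and that gene one of these, was taken. This gave 4 of the 4736 genes with such a probe set, and 8 of 8799 probe sets on the array, 2 for Ttr, 1 for Ptgds, 2 for Enpp2 and 3 for Cp. A further probe set that names Ttr together with 2 metallothionein entries was left out by that rule. The genes were chosen for their biology, with earlier results of these data known, as a sign of how much choroid plexus or meninges each pool of tissue holds.

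The SHA line is named for good learning, and the SLA line for poor learning, of two-way active avoidance, in which a rat crosses a box to avoid a signalled shock. Each line was represented by 3 pools of hippocampi from 3 rats each, and each pool was measured on 1 array. In both lines the tissue was taken 2 weeks after the avoidance testing, so the rats of both groups had been through that testing, and no untested rats were analysed here. The labels give no age, sex or treatment, and a pooled sample gives no value for a single rat, so each line has 3 replicates, the pools. Nothing in the labels says how the hippocampus was freed of choroid plexus and meninges.

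The choroid plexus is a fold of vascular tissue covered by an epithelium that makes cerebrospinal fluid, and it lies in the lateral ventricle against the hippocampus. Transthyretin (Ttr), which carries thyroid hormone and, with retinol-binding protein, vitamin A, is a leading product of that epithelium and is also made in liver. The other genes are less restricted. Prostaglandin D synthase of the lipocalin type (Ptgds) is made by leptomeninges, choroid plexus and oligodendrocytes, autotaxin (Enpp2), the secreted enzyme that makes lysophosphatidic acid, by choroid plexus and oligodendrocytes, and the copper-carrying ferroxidase ceruloplasmin (Cp) by choroid plexus and, in a membrane-anchored form, by astrocytes. In bulk tissue, a lower intensity from fewer cells of a type and from less RNA per cell cannot be told apart.

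The intensities given are the authors' scaled values before any log, and their 2%-trimmed mean was 250 on each of the 6 arrays. For tests, values were raised to a floor of 8.9 and put on the log2 scale, and differences are SHA minus SLA with the standard error of the limma fit. The arrays did not all look alike before any comparison. Between 4.95% and 15.9% of an array's probe sets were at or below the floor, most in SHA pool 2 and SLA pool 2 and fewest in SHA pool 3 and SLA pool 1. SLA pool 1 stood apart, with log2 correlations of 0.846 to 0.906 with the other arrays, where the rest correlated at 0.900 to 0.973. It also had the brightest added bacterial and phage controls, at a geometric mean of 12282, against 640 to 5458 on the other 5 arrays. Of a list of 20 neuronal and hippocampal markers, 16 were on the array and 15 were bright enough to test. Those 15 were above the floor in every pool. The brightest, Nrgn, neurogranin of the postsynaptic density, read 4682.1 to 7730 in SHA and 4273 to 7087.5 in SLA. Slc17a7, which was too dim to test, read 4.0 to 66.6 in SHA and 3.5 to 50.2 in SLA, with 2 pools at or below the floor.

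No difference between the lines was detected for any of the 4 genes. Of the 8 probe sets, 7 were bright enough to be tested, 3 were higher and 4 lower in SHA, and none had an adjusted p under 0.05 in limma (0% of the 6555 probe sets tested passed) or an unadjusted p under 0.05 (1.50% of those tested, 98 probe sets). All 8 had SHA and SLA pools that overlapped, where 5.66% of the probe sets tested had pools of the lines that did not overlap. The adjusted p was 1.00 for each of the 7, and the smallest over the whole table was 0.81. The median difference of the 7 probe sets was -0.18, against -0.01 over all probe sets tested.

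**Figure D1:**
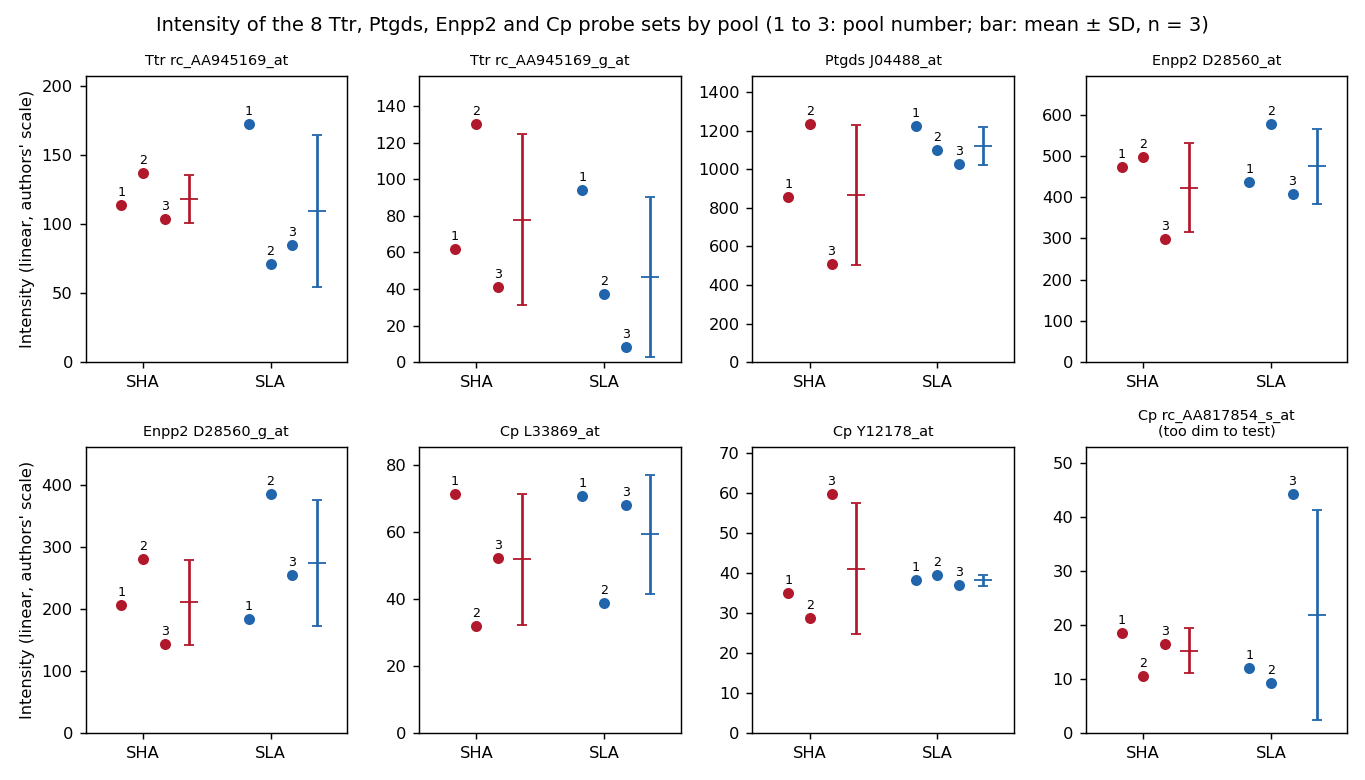
Linear intensity (y axis, each panel from 0) of the 8 probe sets in the 3 SHA pools (red, left) and the 3 SLA pools (blue, right), with the pool number above each point and the mean ± SD beside each line. The points of the lines overlap in every panel, and the Cp probe set rc_AA817854_s_at was too dim to test.

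Ttr had 2 probe sets, both designed to the same expressed sequence tag, and both gave the pools a similar order (Spearman rho 0.89 and Pearson r 0.72 over 6 pools, as a description). On rc_AA945169_at it read 114.1, 137.1 and 103.5 in SHA pools 1, 2 and 3, against 172.9, 70.8 and 85.1 in SLA pools 1, 2 and 3. SHA pools lay between the SLA pools, with the highest and the lowest value of the 6 both in SLA. The means were 118 ± 17.2 in SHA and 110 ± 55.3 in SLA (SD, n = 3 each), and the difference was 0.21 ± 0.44 with a 95% interval from -0.78 to 1.20, and turned to -0.047 without SLA pool 2.

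On rc_AA945169_g_at the Ttr intensities were 61.9, 130.6 and 41.2 in the SHA pools, against 94.2, 37.2 and 8.0 in the SLA pools. This was the widest spread among the 8 probe sets, 14.7-fold between the highest pool, SHA pool 2, and SLA pool 3 set to the floor. Its SD within the lines, 1.35 on the log2 scale, was larger than that of 95.5% of the probe sets tested. The difference was 1.14 ± 0.88 (95% interval -0.83 to 3.10, unadjusted p = 0.22 in limma) and rested on 1 dim reading: without SLA pool 3 it was 0.23. Without SLA pool 1, the array that stood apart, it was 1.93 (unadjusted p = 0.047, adjusted p = 1.00 in limma), and the other Ttr probe set then differed by 0.60. Between pools of the same number, Ttr was lower in SHA for number 1, by -0.60 and -0.61 on the 2 probe sets, and higher in SHA for number 2, by 0.95 and 1.81, and for number 3, by 0.28 and 2.21.

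Ptgds, the enzyme that makes prostaglandin D2 and that also circulates in cerebrospinal fluid as a carrier of lipophilic molecules, was read by J04488_at. It had intensities of 854.1, 1236.6 and 507.7 in the SHA pools, against 1224, 1099.9 and 1029.3 in the SLA pools. The SHA pools held both the highest and the lowest value, and their spread was 2.44-fold, against 1.19-fold within SLA. The means were 866 ± 365 in SHA and 1118 ± 98.6 in SLA, a difference of -0.46 ± 0.32 (95% interval -1.17 to 0.26). This was the smallest unadjusted p of the 4 genes, at 0.19 in limma. The lower SHA mean rested mostly on SHA pool 3, since without it the difference was -0.12. Without SHA pool 2 it was -0.76, at an unadjusted p of 0.034 and an adjusted p of 1.00 in limma.

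Enpp2 was read by 2 probe sets of the same sequence. On D28560_at its intensities were 471.8, 498 and 299.4 in SHA pools, against 436, 578.2 and 408.1 in SLA pools. On D28560_g_at they were 206.6, 280.9 and 143.7 in SHA pools, against 183.2, 384.3 and 253.6 in SLA pools. Both probe sets were highest in SLA pool 2 and lowest in SHA pool 3, and correlated at a Pearson r of 0.86 and a Spearman rho of 0.83 over the 6 pools, as a description. The differences were -0.18 ± 0.29 (95% interval -0.82 to 0.46) on D28560_at and -0.37 ± 0.38 (95% interval -1.21 to 0.48) on D28560_g_at. Single pools moved both: D28560_at differed by 0.049 without SHA pool 3 and by -0.03 without SLA pool 2, and D28560_g_at by -0.088 without SLA pool 2 and by -0.62 without SLA pool 1. D28560_at gave the narrowest interval of the 7 tested probe sets, which in linear terms runs from 0.565-fold to 1.37-fold.

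Cp was read by 3 probe sets, with intensities between 9.3 and 71.2, which did not order the pools alike. On L33869_at the intensities were 71.2, 32.0 and 52.2 in SHA pools, against 70.8, 38.9 and 68.0 in SLA pools, a difference of -0.22 ± 0.55, which turned to 0.092 without SHA pool 2. Here the lines gave nearly the same value within pool number 1, and both pools numbered 2 were the lowest of their line. Those are also the arrays with the largest shares of probe sets at or below the floor, 15.9% in SHA and 13.6% in SLA. The part of this in the Cp values was not tested. On Y12178_at the intensities were 35.0, 28.7 and 59.7 in SHA pools, against 38.2, 39.6 and 36.9 in SLA pools, a difference of 0.03 ± 0.58, which turned to -0.27 without SHA pool 3. The SLA pools lay close together at 38.2 ± 1.35, and SHA pool 3 was the highest of the 6. The third probe set, rc_AA817854_s_at, read 18.6, 10.6 and 16.5 in SHA pools and 12.1, 9.3 and 44.2 in SLA pools, near the floor, and was left out of the test as one of the dimmest 25% of probe sets. The Pearson r between the 3 probe sets over the 6 pools were 0.22, 0.61 and 0.09, and the Spearman rho -0.03, 0.66 and -0.14, at these dim readings. Whether all of them read Cp was not tested.

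**Figure D2:**
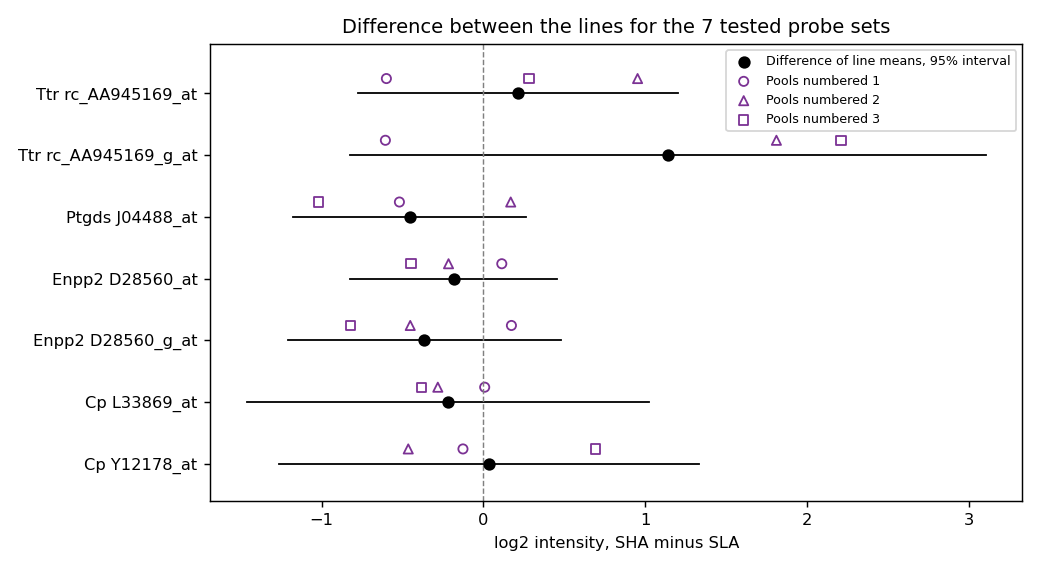
Difference between the lines on the log2 scale (x axis, SHA minus SLA) for the 7 tested probe sets, as the difference of line means with its 95% interval (black) and as the difference between pools of the same number (open symbols). All 7 intervals cross 0, and the symbols of the 3 pool numbers lie on both sides of 0 in all 7 rows.

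Whether the 4 transcripts ordered the pools alike was examined next, and no shared order was detected. Each gene was represented by its brightest tested probe set, and all 6 pairs of genes were compared over the 6 pools on the log2 scale, with exact two-sided permutation p-values adjusted over the 6 pairs. Ptgds and Enpp2 had the highest correlation, at a Pearson r of 0.79 (exact permutation p = 0.083, adjusted p = 0.50) and a Spearman rho of 0.60 (exact permutation p = 0.24, adjusted p = 0.75). It rested on SHA pool 3, the lowest pool for both: without SHA pools 1 and 3, the 2 pools farthest from the median of Ptgds, r was 0.15. Ttr correlated with Ptgds at 0.23, with Enpp2 at -0.14 and with Cp at 0.19, with exact permutation p-values of 0.67, 0.80 and 0.69 and rho of 0.43, -0.09 and 0.26. Without SLA pools 1 and 2, the farthest for Ttr, these r became 0.29, 0.50 and -0.745. Cp correlated with Ptgds at -0.19 and with Enpp2 at -0.37, with exact permutation p-values of 0.77 and 0.48, rho of -0.43 and -0.37, and r of -0.32 and -0.70 without the 2 farthest pools. The smallest adjusted p over these r was 0.50 and over the rho 0.75, and the arrays share a scaling and pool numbers.

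Transcripts of the choroid plexus epithelium other than Ttr were looked at in a list of 52 genes, of which 26 were on the array under a single name and 20 were bright enough to test. Of these, 6 were higher and 14 lower in SHA, none with an unadjusted p under 0.05, and their median difference was -0.06. Over all 3812 genes tested, 54.2% were lower in SHA and the median was -0.03. The split depended on the scaling and on single pools: 11 of the 20 were lower after quantile normalization, 10 after median centring, 10 to 12 on leaving out 1 pool and 9 without both pools numbered 1. The median turned to 0.07 without SHA pool 2. The 4 brightest were Atp1b1, a sodium pump subunit that neurons also express (0.37 ± 0.28), the growth factor Igf2 (-0.10 ± 0.35), the peptide transporter Slc15a2 (-0.26 ± 0.28) and the sodium-potassium-chloride cotransporter Slc12a2 (-0.14 ± 0.32).

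Aqp1, Kcnj13 and Kl were chosen for naming after their values were seen, and the first 2 were at or near the floor. Aqp1, the epithelium's apical water channel, read 7.1, 6.7 and 43.6 in SHA pools and 9.1, 3.2 and 4.1 in SLA pools, with 4 of 6 pools at or below the floor. Kcnj13, a potassium channel of the epithelium, had 2 of 6 pools there and read at most 17.2 in SHA pools and 47.8 in SLA pools. Kl, the anti-ageing protein klotho, was above the floor in all 6 pools, where it read 85.2, 45.6 and 144.2 in SHA pools, against 81.6, 63.1 and 120.8 in SLA pools, and differed by -0.05 ± 0.53. Summed intensity of the 20 tested genes ran from 9312 to 12732 in SHA pools and from 8920 to 10347 in SLA pools, most of it from Atp1b1.

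Set against the pools one by one, the list and the secreted proteins, each by its brightest tested probe set, did not order them alike. The median deviation of the 20 choroid plexus genes from their 6-pool means was highest in SHA pool 3, at 0.43, and lowest in SHA pool 2, at -0.34. Ttr deviated by -0.08 and 0.33 in those pools, Ptgds by -0.91 and 0.38, Enpp2 by -0.55 and 0.18, and Cp, on L33869_at, by -0.02 and -0.73. For Cp this depended on the probe set. On Y12178_at, Cp was highest in SHA pool 3, at 59.7, and lowest in SHA pool 2, at 28.7, the same extremes as the list. SHA pool 3 and SHA pool 2 are also the arrays with the smallest and the largest share of probe sets at or below the floor, 4.95% and 15.9%, and the part of this in the list's order was not tested. The median correlation of the 20 genes with each gene's brightest probe set over the 6 pools was -0.04 for Ttr, -0.31 for Ptgds, -0.54 for Enpp2 and 0.37 for Cp, given as a description. Over all tested genes these medians were -0.01, -0.09, -0.10 and 0.04. The value for Cp was not particular to choroid plexus. Its median was 0.63 with thyroid hormone and retinol transport genes and 0.59 with markers of neighbouring brain regions.

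**Figure D3:**
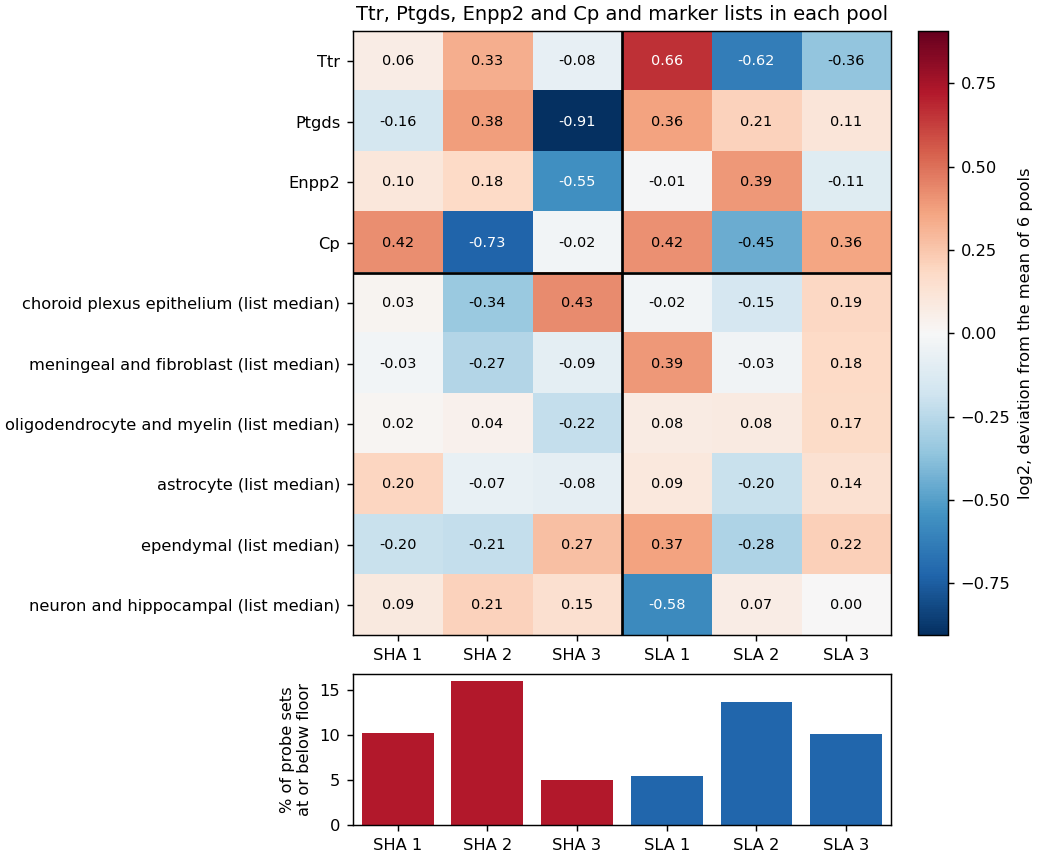
Deviation from the mean of the 6 pools on the log2 scale (colour and printed value) for Ttr, Ptgds, Enpp2 and Cp, each by its brightest tested probe set, and for the median of 6 marker lists, in SHA pools (left) and SLA pools (right), with the percentage of probe sets at or below the floor per array underneath. Ptgds and Enpp2 were lowest in SHA pool 3 (-0.91 and -0.55), where the choroid plexus list was highest (0.43).

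Meningeal and fibroblast genes were lower in SHA for 17 and higher for 6 of 23 tested of 37, with a median of -0.29, 3 of them at an unadjusted p under 0.05 and none at an adjusted p under 0.05 in limma. Over all 3812 genes tested, 54 had an unadjusted p under 0.05 and 54.2% were lower in SHA. The list was chosen with earlier results of these data known, so its counts beside these are a description and not a test. Serping1, the C1 inhibitor of complement, read 37.7, 28.3 and 37.0 in SHA pools and 242.9, 104.7 and 102.4 in SLA pools (-2.01 ± 0.51), and Vim, the intermediate filament vimentin, 85.8, 127.1 and 93.3 against 189.8, 284.4 and 185.9 (-1.10 ± 0.35). The third was Gjb2, connexin 26 of gap junctions, named after its values were seen, at 42.6, 113.1 and 72.6 in SHA pools and 122.1, 152.4 and 185.9 in SLA pools (-1.10 ± 0.46). All 3 had pools of the lines that did not overlap, as had 5.66% of the probe sets tested. They were picked for a small unadjusted p, which itself favours pools that do not overlap. Serping1 and Vim are also made outside the meninges. The 4 brightest genes of the list, Sparc, a matrix protein (0.31 ± 0.56), Apod, a lipocalin (-0.37 ± 0.25), Aldh1a1, a retinal dehydrogenase (0.22 ± 0.25), and Igf2, had pools that overlapped. Without SLA pool 1 the median of the list was -0.10, and where probe sets of a gene were averaged, 13 of 23 were lower. The summed intensity, most of it Sparc, was 11484 to 30168 in SHA pools and 10465 to 28453 in SLA pools. The median correlation with the list was 0.37 for Cp, 0.22 for Ptgds, 0.06 for Ttr and 0.06 for Enpp2, as a description. For Cp this too was below its medians with thyroid hormone and retinol genes and with neighbouring-region markers.

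Oligodendrocytes are the other main source of Ptgds and Enpp2 in brain, and of 13 oligodendrocyte and myelin genes tested of 22, 10 were lower and 3 higher in SHA, with a median of -0.19 and none at an unadjusted p under 0.05. The brightest were Mbp, myelin basic protein (-0.11 ± 0.38), Mobp, another myelin protein (-0.21 ± 0.30), Qdpr, dihydropteridine reductase (-0.35 ± 0.30), and Mag, myelin-associated glycoprotein (0.05 ± 0.25). The summed intensity was lowest in SHA pool 3, at 18280, and ran up to 26039 in SHA and from 19599 to 30617 in SLA. The median deviation of the list was likewise lowest in SHA pool 3, at -0.22, the pool in which Ptgds and Enpp2 were lowest, and without that pool the median difference of the list was -0.04. Its median correlation over the pools was 0.50 with Ptgds and 0.34 with Enpp2, against -0.13 with Ttr and -0.07 with Cp, and all tested genes had medians of -0.09, -0.10, -0.01 and 0.04 with Ptgds, Enpp2, Ttr and Cp. Ptgds also had a median correlation of 0.36 with a list of microglial markers. The part of oligodendrocyte content in the Ptgds and Enpp2 values was not tested.

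Astrocyte markers, a possible source of Cp, were split 7 to 7 of 14 tested of 21, with a median of -0.01 and summed intensities of 53441 to 86421 in SHA pools and 47894 to 95372 in SLA pools. Apoe, the main brain apolipoprotein (-0.09 ± 0.59), Sparcl1, a synapse-promoting matrix protein (-0.11 ± 0.34), Clu, clusterin (-0.20 ± 0.34), and Aldoc, an aldolase (0.28 ± 0.29), were the brightest. The median correlation of the astrocyte list with Cp, on L33869_at, was 0.40, against 0.04 over all tested genes, as a description. Ependymal markers had 3 of 5 tested of 15 higher (median 0.03), with Foxj1, the regulator of motile cilia, at 6.2 to 21.8 in SHA pools and 10.7 to 48.7 in SLA pools and below the test's brightness limit. Endothelial and vascular markers had 7 of 16 tested of 24 higher (median -0.13), blood cell transcripts 2 of 7 tested of 15 (median -0.11) and markers of neighbouring brain regions 2 of 13 tested of 18 (median -0.20). Single pools turned all 3 medians, to 0.018 for endothelial genes without SLA pool 3, to 0.044 for blood genes without SHA pool 2, and to 0.15 and 0.07 for neighbouring regions without SHA pool 2 and without SLA pool 1. Microglial markers had 0 of 10 tested of 17 higher and 10 lower (median -0.47), with C1qb, a chain of complement C1q, at -0.61 ± 0.26, where 54.2% of all tested genes were lower. Without SLA pool 1, 2 of the 10 microglial genes were higher in SHA. Of the 12 on the array, Csf1r and Itgam were too dim to test, and were named after their values were seen. Their means were higher in SHA, at 42.1 against 20.4 for Csf1r and 20.9 against 15.2 for Itgam, with pools that overlapped. For Itgam this rested on SHA pool 3, at 53.8, and 3 pools were at or below the floor. The summed intensity of the 10 tested was 2706 to 3692 in SHA pools and 4258 to 4971 in SLA pools. Its brightest part was Ctss, cathepsin S. Ctss read 1407.6 to 2394.4 in SHA pools and 2056.4 to 3237.5 in SLA pools, ranges that overlapped. Neuronal and hippocampal markers had 13 of 15 tested of 20 higher (median 0.27, and 0.07 without SLA pool 1), with sums of 28077 to 29739 in SHA pools and 25041 to 28176 in SLA pools. None of these genes had an adjusted p under 0.05 in limma.

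The pathways around the 4 proteins showed no gene past the threshold. Of thyroid hormone and retinol transport genes, partners of Ttr, 7 of 12 tested of 25 were higher and 5 lower in SHA (median 0.05). Rbp4, the retinol-binding protein that Ttr carries in plasma, was chosen for naming for that role and read 133, 85.3 and 110.1 in SHA pools and 221.7, 81.5 and 129.4 in SLA pools (-0.30 ± 0.45). Like Ttr on rc_AA945169_at, it was highest in SLA pool 1. Of prostaglandin synthesis and receptor genes, 7 of 11 tested of 25 were higher and 4 lower (median 0.03). Ptgs2, the inducible cyclooxygenase upstream of Ptgds, also chosen for its role, read 79, 153 and 103.2 in SHA pools and 69.8, 108 and 88.5 in SLA pools (0.30 ± 0.43).

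Of lysophosphatidic acid and lysolipid genes, 3 of 8 tested of 21 were higher and 5 lower (median -0.23). Lpar1, a receptor for the product of Enpp2 that is abundant in oligodendrocytes, chosen for its role, read 196.7, 201.3 and 172.5 in SHA pools and 267.3, 277 and 207.5 in SLA pools, a difference of -0.39 ± 0.28 (unadjusted p = 0.20 in limma). Its lines did not overlap, as for 5.66% of the probe sets tested. Of iron and copper handling genes, 6 of 14 tested of 28 were higher and 8 lower (median -0.06). Hmox1, the inducible haem oxygenase, was the gene of that list with an unadjusted p under 0.05, at 33.6, 95.3 and 40.4 in SHA pools and 121.7, 126.4 and 158.3 in SLA pools (-1.41 ± 0.50). Slc40a1, ferroportin, the iron exporter that works with Cp, was chosen for its role and differed by -0.16 ± 0.59.

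Genes whose brightest probe set varied over the 6 pools most like each of the 4 were named by Pearson r, as a description over 6 pools that share a scaling. For Ttr these were Hspa4 (0.97), a heat shock protein of the Hsp70 family, Aanat (0.97), the melatonin-synthesis enzyme, Ssrp1 (0.96), Ccnd3 (0.96) and Il1rl2 (0.94), and 10 of 3808 other genes had r above 0.9. For Ptgds they were Npr2 (0.98), the receptor of C-type natriuretic peptide, Sfmbt1 (0.98), Itih3 (0.98), Hist1h2af (0.97) and Vhl (0.96), with 33 genes above 0.9. For Enpp2 they were Ptpn12 (0.98), Cryab (0.97), a small heat shock protein that oligodendrocytes express, Wdr74 (0.97), Pak2 (0.95) and B2m (0.95), the light chain of MHC class I, with 22 genes above 0.9. For Cp, on L33869_at, they were C5ar1 (0.99), the receptor of complement C5a, Cpsf4 (0.98), C2cd4b (0.98), Ghrhr (0.98) and Slc12a7 (0.98), with 119 genes above 0.9. Of these 20 genes, only Cryab was in the choroid plexus, meningeal, oligodendrocyte or astrocyte list, as an oligodendrocyte gene.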

How the data were processed

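Each array's deposited intensity values are linear, with 1 value for a probe set. The authors had scaled the arrays to a common trimmed mean, as the values show. How they did so is not given in the sources used here. No value is missing or below 0, and detection calls were not used here. Of 8799 probe sets, 59 array controls were set aside. Values under 8.9, the 10th percentile of the rest, were raised to it, log2 was taken, and the dimmest 25% by mean log2 was left out, which left 6555. Names came from the platform annotation, updated through gene numbers (6985 of 7006 single-name probe sets matched assembly GRCr8). The test of SHA against SLA was limma's (version 3.58.1, R 4.3.3), two-sided, with lmFit, eBayes and an intensity trend, and Benjamini-Hochberg adjustment over the 6555, at a threshold of 0.05. The limma fit was also run on simulated data with noise drawn independently for each pool. Those data lacked the shared deviations of same-numbered pools described below, so that run does not bear on them. Correlations used scipy 1.17.1. A gene in a list was read from its brightest tested probe set. The 14 lists, of 320 genes with 173 tested, are those reported. Named genes were every probe set of the 4 genes, the 5 genes most like each, the 2 of smallest unadjusted p under 0.05 per list and direction, and the 4 brightest of the choroid plexus, meningeal, oligodendrocyte and astrocyte lists. Nrgn, Slc17a7, Foxj1 and Ctss were named outside these rules, and others are marked where they stand. The genes and lists were chosen with earlier results of these data known. Nothing in the labels says what a pool number shares, but same-numbered pools deviated together from their line means (correlations of 0.44, 0.68 and 0.13). The test reported was unpaired, and the pool number entered only as a block in another fit. The pools are separate samples, and p-values measure only the spread between them. Alternatives were other normalizations, filters, floors, variance models, a fit with the pool number as a block, array weights and leaving out each pool. Leaving out both pools numbered 1 was chosen after seeing the data.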

Additional observations from a re-analysis of the deposited data

How the results depend on the processing

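The 7 tested probe sets of Ttr, Ptgds, Enpp2 and Cp gave 116 values under 17 other settings, none with an adjusted p under 0.05 (smallest 0.83). Their direction turned in 4 of these, each on leaving out 1 pool, where the ranges were -0.047 to 0.60 for Ttr on rc_AA945169_at (turned without SLA pool 2), -0.32 to 0.049 for Enpp2 on D28560_at (without SHA pool 3), -0.50 to 0.092 for Cp on L33869_at (without SHA pool 2) and -0.27 to 0.26 for Cp on Y12178_at (without SHA pool 3). The stricter filter removed both tested Cp probe sets and 1 of Ttr. On rc_AA945169_g_at, a floor at the 25th percentile gave Ttr a difference of 0.63 and array weights gave 2.38, where it was the 1 probe set of the 4 genes at an unadjusted p under 0.05. That count was 0 to 1 on leaving out 1 pool, with 1 for Ptgds without SHA pool 2 and 1 for Ttr without SLA pool 1. Over the whole table, 98 probe sets at an unadjusted p under 0.05 became 203 where dim probe sets were kept, 63 where the dimmer 50% was dropped, 354 under array weights, 345 in the fit with a replicate block for the pool number, and 58 to 154 on leaving out 1 pool (61 and 149 on dropping SHA pool 1 or 2, 154 and 58 on dropping SLA pool 2 or 3). No probe set passed in limma under any of them, and the block changed no call for the 4 genes. It did make the standard error of all 7 smaller. That of Ptgds went from 0.32 to 0.22 (unadjusted p = 0.072 in limma with the block). That of Enpp2 on D28560_at went from 0.29 to 0.18, and that of Cp on Y12178_at from 0.58 to 0.53. The standard errors and intervals given for the 4 genes are those of the unpaired fit. List medians ranged, on leaving out 1 pool, from -0.42 to -0.10 for meningeal, -0.22 to -0.042 for oligodendrocyte, -0.54 to -0.25 for microglial, -0.32 to -0.12 for lysolipid and 0.07 to 0.38 for neuronal genes. They took both signs for the other 9 lists: -0.17 to 0.071 (choroid plexus), -0.11 to 0.068 (astrocyte), -0.24 to 0.25 (ependymal), -0.22 to 0.018 (endothelial), -0.42 to 0.044 (blood), -0.56 to 0.15 (neighbouring regions), -0.09 to 0.25 (thyroid hormone and retinol), -0.20 to 0.18 (prostaglandin) and -0.13 to 0.033 (iron and copper). Iron and copper genes had a median of 0.069 without both pools numbered 1. Of the correlations between genes, Ttr with Enpp2 turned to 0.24 after quantile normalization, 0.16 after median centring and 0.50 without the 2 farthest pools, Ttr with Cp to -0.745 without those pools, and Ptgds with Cp and Enpp2 with Cp to 0.30 and 0.26 after quantile normalization. The cause of these changes was not tested. Readings near the floor of 8.9 limit Cp and the dimmer Ttr probe set, and the number of arrays limits all of them.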
